A study of Mus musculus with 8 samples.

Results

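The loops of mouse chromosome 11 were examined in 4 Hi-ChIP loop lists. A loop was a listed pair of anchors, the short genomic intervals that a Hi-ChIP library joins, and all loops whose chromosome was given as 11 were taken. These were 14098 of 125623 loops for FOXA1 in liver mets, 11815 of 104136 for FOXA1 in tumour, 9013 of 78098 for HNF4G in liver mets and 9650 of 76323 for HNF4G in tumour. The chromosome held 2410 of the 30542 anchors of the 4 lists combined. It was picked because its number of loops per anchor was high, so that number and its excess over other chromosomes are given as a description and were not tested.

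Hi-ChIP couples proximity ligation of chromatin to immunoprecipitation, so it reads contacts of fragments that carry a chosen protein. The 8 samples came from cultured mouse pancreatic cancer cells of the KPC model, which carries mutant Trp53, and were 2 replicates each of FOXA1 Hi-ChIP in the KPC tumour line, FOXA1 Hi-ChIP in the KPC liver mets line, HNF4G Hi-ChIP in the tumour line and HNF4G Hi-ChIP in the liver mets line. The labels described every sample as untreated with genotype WT and did not say to which gene WT referred. Each context was a single cell line, and each group had 1 list covering both replicates, so no spread between replicates could be computed, depth is unknown, and every interval below (95%) covers counting error of loops only. Lists named no protein beyond the label, and anchor coordinates coincided between lists. Of the 2410 chromosome 11 anchors, FOXA1 liver mets used 2386, FOXA1 tumour 2366, HNF4G liver mets 2311 and HNF4G tumour 2288. The labels could therefore not be checked against the loops. Copy number of chromosome 11 or of parts of it in these lines was not analysed here, and no value below was adjusted for it.

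FOXA1 is a pioneer factor that opens chromatin at enhancers of gut-derived epithelia, and HNF4G is a nuclear receptor active in the same tissues. Both bind enhancers and promoters, and enhancers reach distant promoters by looping of the intervening DNA. Whether 2 anchors meet depends strongly on the distance between them, so a chromosome on which anchors are crowded has more close pairs and more loops without any change in the chance that a given pair is joined. Mouse chromosome 11 is gene-rich and carries Trp53, Erbb2, Stat3, Sox9, the Hoxb cluster, the type I keratins and the Polycomb genes Cbx2 and Cbx8.

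Sequences from anchors on which the results below turn are shown first, because the letters bound by the 2 factors are what these libraries were meant to select. The core searched for FOXA factors was TGTTTAC and that for HNF4 factors was CAAAGTCCA, each on both strands. These cores do not overlap in sequence. The Lasp1 anchor, which had the most loops on the chromosome, held neither. For each anchor the match nearest its midpoint is printed in the orientation of the motif with 20 bases on each side, in lower case with the motif in capitals, from the GRCm38 (mm10) assembly. The Sox9 match lay at chr11:112780962-112781008 (minus strand) in an intron of BC006965, upstream of Sox9, the Erbb2 match at chr11:98415944-98415990 (plus strand) in an Erbb2 intron, and the Tk1/Afmid match at chr11:117827432-117827478 (minus strand) in an intron of Afmid. The Rara matches lay in Rara introns at chr11:98948849-98948895 (FOXA) and chr11:98951456-98951504 (HNF4), both on the plus strand. The Cbx8 matches lay between genes at chr11:119041723-119041769 (FOXA, plus strand) and chr11:119042082-119042130 (HNF4, minus strand).
Sox9 anchor, FOXA core: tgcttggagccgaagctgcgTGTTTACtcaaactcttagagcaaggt
Erbb2 anchor, FOXA core: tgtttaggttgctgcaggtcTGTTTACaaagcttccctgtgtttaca
Tk1/Afmid anchor, FOXA core: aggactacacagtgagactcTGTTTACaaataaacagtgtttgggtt
Rara anchor, FOXA core: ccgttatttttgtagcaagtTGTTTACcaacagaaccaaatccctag
Rara anchor, HNF4 core: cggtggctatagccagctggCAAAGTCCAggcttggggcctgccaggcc
Cbx8 anchor, FOXA core: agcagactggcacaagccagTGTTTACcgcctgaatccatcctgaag
Cbx8 anchor, HNF4 core: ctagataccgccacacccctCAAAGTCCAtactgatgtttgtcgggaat

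The Sox9 anchor held 3 FOXA cores, the Erbb2 anchor 5, the Rara anchor 3, the Cbx8 anchor 2 and the Tk1/Afmid anchor 1. These counts cover the whole anchor and were not adjusted for width. Each of these anchors was wider than the chromosome 11 median given below. Over whole anchors, the FOXA core stood in 33.3% of anchors on chromosome 11 and 36.9% on the other autosomes. That was 0.151 and 0.181 cores per kb. Such cores were not more frequent on the chromosome than elsewhere. In the central 300 bases, 6.93% of chromosome 11 anchors (5.98 to 8.01) and 7.77% of anchors on the other 18 autosomes (7.46 to 8.09) held the FOXA core, and the HNF4 core stood in 0.581% and 0.593%. The chromosome 11 anchors had a median GC content of 50.2% against 47.9%, and 1.58 against 1.46 DpnII sites (GATC, the restriction site of the assay) per kb. Their median width was 2379 bp against 2335 bp, and 50.2% against 44.8% lay within 2 kb of an annotated transcription start, which is called a promoter anchor below.

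Promoters of a pair of the genes discussed below are shown because their anchors were among the most connected on the chromosome. Each runs from 250 bases before to 50 bases after the gene start as RefSeq gives it on GRCm38.p6, with motif letters in capitals. The Bahcc1 promoter (chr11:120232697-120232996, plus strand) held 1 FOXA core, which 3.65% of 32851 RefSeq promoters held. The Cbx8 promoter (chr11:119040864-119041163, minus strand) held none of the motifs searched, and its GC content was 66.0%.
Bahcc1 promoter: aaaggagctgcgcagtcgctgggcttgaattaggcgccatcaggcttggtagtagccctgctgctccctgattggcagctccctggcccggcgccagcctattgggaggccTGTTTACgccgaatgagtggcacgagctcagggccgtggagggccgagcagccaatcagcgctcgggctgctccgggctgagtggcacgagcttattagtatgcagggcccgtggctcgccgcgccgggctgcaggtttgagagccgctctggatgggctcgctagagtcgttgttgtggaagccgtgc
Cbx8 promoter: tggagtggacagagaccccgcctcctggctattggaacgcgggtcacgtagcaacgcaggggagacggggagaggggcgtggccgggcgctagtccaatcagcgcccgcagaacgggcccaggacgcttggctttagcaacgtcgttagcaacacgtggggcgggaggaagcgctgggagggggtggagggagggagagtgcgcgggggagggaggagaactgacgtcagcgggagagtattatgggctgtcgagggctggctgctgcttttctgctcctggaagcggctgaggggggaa

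Loops were more numerous per anchor on chromosome 11 than on the other autosomes in all 4 lists. The number of loops divided by the number of anchors, called loops per anchor, was 5.85 against 4.0 for FOXA1 in liver mets, 4.90 against 3.31 for FOXA1 in tumour, 3.74 against 2.48 for HNF4G in liver mets and 4.0 against 2.39 for HNF4G in tumour. The ratios were 1.46 (1.44 to 1.49), 1.48 (1.45 to 1.51), 1.51 (1.48 to 1.54) and 1.67 (1.64 to 1.71). Only chromosome 19 had more loops per anchor, with 7.44, 6.39, 4.89 and 4.78 in the same order of lists. Chromosome 11 held 7.89% of all anchors but 11.2%, 11.3%, 11.5% and 12.6% of the loops.

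Most of this excess corresponded to the number of close anchor pairs. The number of pairs 5 kb to 2 Mb apart, the range of the listed loops, divided by the number of anchors was 61.6 on chromosome 11 against 38.9 on the other autosomes, a ratio of 1.58 and the highest of the 19 autosomes. Only chromosome 19 had more anchors per Mb, 21 against 19.7 on chromosome 11. To separate the number of pairs from the chance of being listed, the expected loops of chromosome 11 were computed by giving each of its pairs the share of pairs listed on the other autosomes in the same of 24 span classes. Expected numbers were 13863, 11391, 8458 and 8205. The observed over expected ratio was 1.02 (1.00 to 1.03) for FOXA1 in liver mets, 1.04 (1.02 to 1.06) for FOXA1 in tumour, 1.07 (1.04 to 1.09) for HNF4G in liver mets and 1.18 (1.15 to 1.2) for HNF4G in tumour. On a log2 scale the pairs therefore made up 95.6%, 90.7%, 84.6% and 68.6% of the excess in loops per anchor.

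By that ratio chromosome 11 did not lead the genome. It was exceeded by 8, 7, 5 and 1 of the other 18 autosomes, with chromosome 19 highest in each list (1.34, 1.40, 1.44 and 1.43). Without regard to span, a smaller share of chromosome 11 pairs than of other pairs was listed for FOXA1 in liver mets (9.50% against 10.3%), FOXA1 in tumour (7.96% against 8.51%) and HNF4G in liver mets (6.07% against 6.37%). HNF4G in tumour was the exception, with 6.5% against 6.15%.

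**Figure D1:**
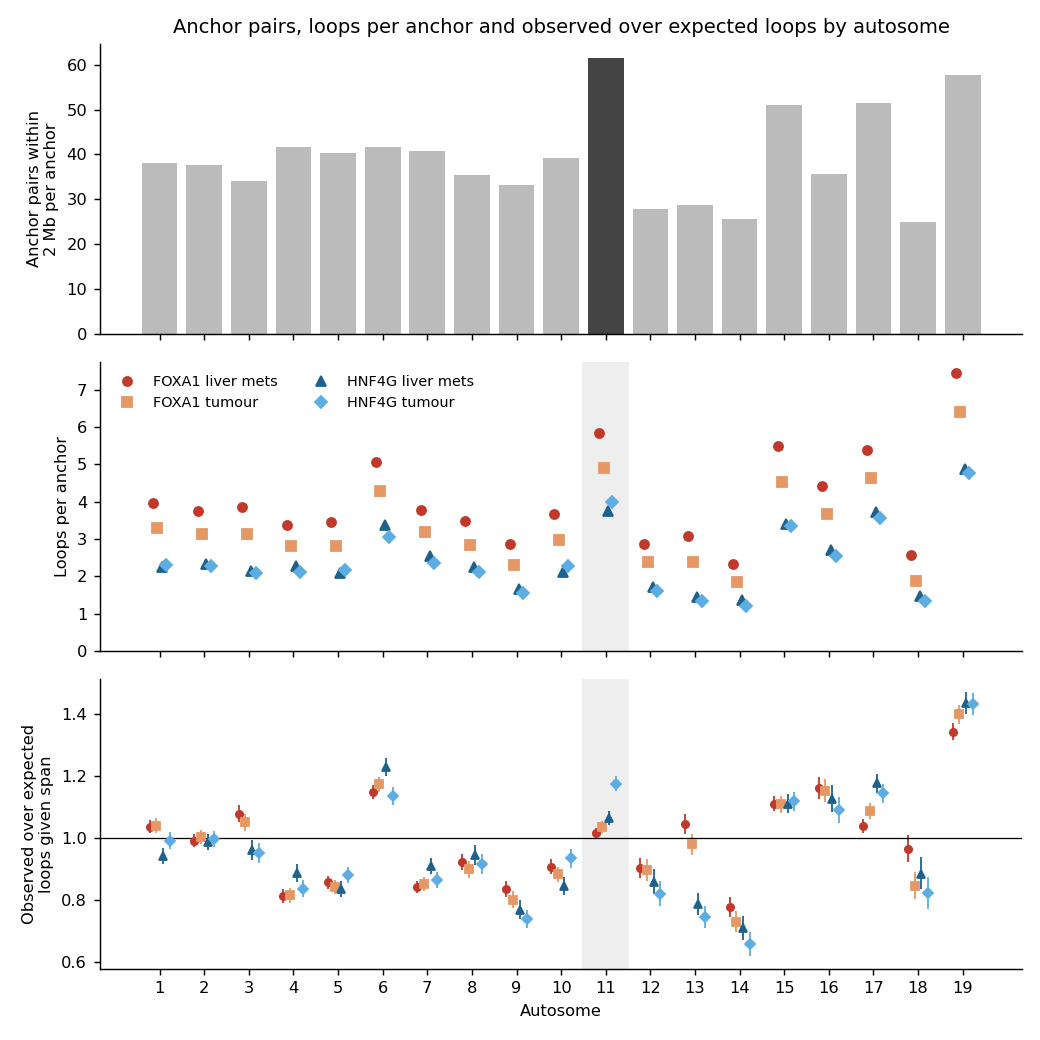
Anchor pairs 5 kb to 2 Mb apart per anchor (top, chromosome 11 dark), loops per anchor (middle) and observed over expected loops given span with 95% counting intervals (bottom) for the 19 autosomes, with 1 point per list. Chromosome 11 has the most pairs per anchor (61.6) and the second most loops per anchor, while its observed over expected ratios of 1.02 to 1.18 lie below those of chromosome 19.

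The 2 components behaved differently with distance. Pairs per anchor exceeded the other autosomes by 1.32 times at 5 to 10 kb and by 1.68 times at 1000 to 2000 kb, so the surplus of pairs was largest at long range. The share of pairs that was listed was above that of the other autosomes in every list up to 200 kb. At 20 to 50 kb it was 56.5% against 51.7% for FOXA1 in liver mets, 52.0% against 47.1% for FOXA1 in tumour, 45.2% against 39.6% for HNF4G in liver mets and 41.5% against 35.6% for HNF4G in tumour. At 1000 to 2000 kb the order reversed for 3 lists, with 2.23% against 2.30%, 1.45% against 1.62% and 0.923% against 1.08%, and for the first of these the chromosome 11 interval (2.13% to 2.35%) took in the other value. HNF4G in tumour again stood apart, with 1.30% (1.22 to 1.39) against 1.14% (1.11 to 1.17) at this range and 3.23% against 2.68% at 500 to 1000 kb.

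**Figure D2:**
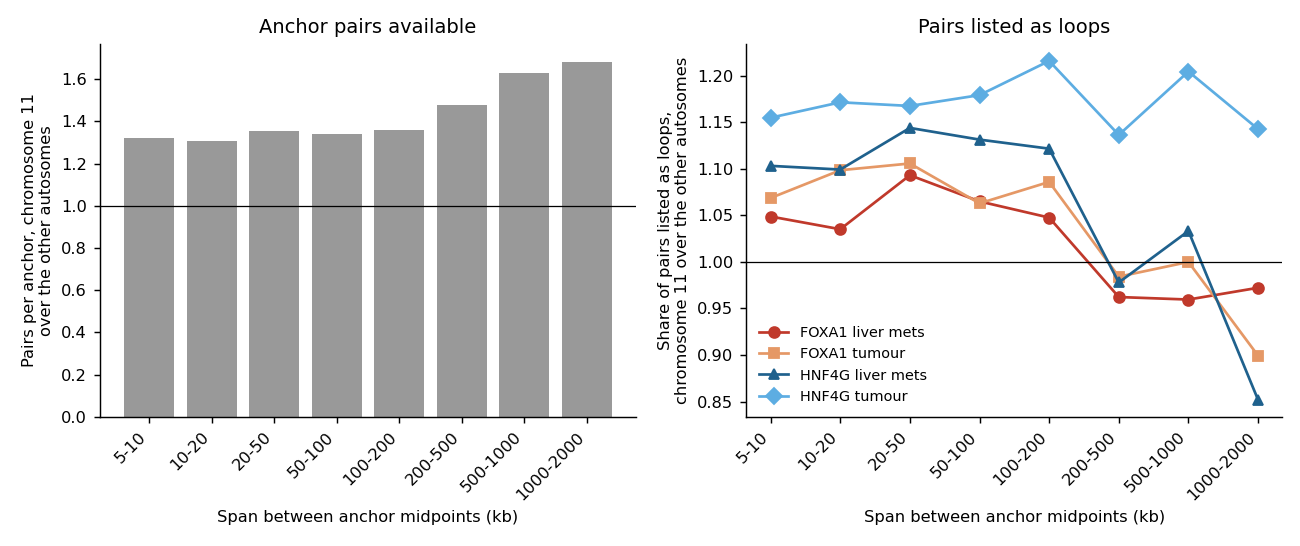
Ratio of chromosome 11 to the other autosomes in pairs per anchor (left) and in the share of pairs listed as loops (right, 1 line per list), by the span between anchor midpoints in kb; the right axis does not start at 0. Pairs per anchor rise from 1.32 to 1.68 with span, and the HNF4G tumour line alone stays above 1 in every range, between 1.14 and 1.22.

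Crowding of anchors moved with this result. In 49.8% of chromosome 11 pairs, against 16.6% of pairs elsewhere, the 2 anchors had on average more than 44.5 other anchors within 500 kb. In this densest of 5 classes the observed over expected ratio was 1.06, 1.10, 1.13 and 1.34 on chromosome 11 and 1.07, 1.08, 1.14 and 1.22 on the other autosomes, in the order FOXA1 liver mets, FOXA1 tumour, HNF4G liver mets and HNF4G tumour. When expected loops were set by span and this local density together, the chromosome 11 ratios were 0.996 (0.979 to 1.01), 1.01 (0.990 to 1.03), 1.01 (0.988 to 1.03) and 1.08 (1.05 to 1.10). With span and the width of the anchors they were 0.964 (0.949 to 0.981), 0.988 (0.970 to 1.01), 1.01 (0.993 to 1.04) and 1.11 (1.09 to 1.13). HNF4G in tumour was the only list whose interval lay above 1 under both settings.

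The value attached to each loop, read as the −log10 of an adjusted p, moved the ratio in 3 of the lists. Chromosome 11 had 1296, 1012, 772 and 858 loops at a value of at least 2, and for these the observed over expected ratio given span was 1.01 (0.952 to 1.06) for FOXA1 in liver mets and 1.16 (1.09 to 1.23) for FOXA1 in tumour. It was 1.31 (1.22 to 1.41) for HNF4G in liver mets and 1.49 (1.39 to 1.59) for HNF4G in tumour. At a value of 4 or more the 4 ratios were 1.03 (0.927 to 1.14), 1.23 (1.07 to 1.39), 1.49 (1.30 to 1.71) and 1.80 (1.59 to 2.04).

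Loops also concentrated near the distal end of the chromosome. Along 25 bins of 5 Mb, the most loops per anchor over the 4 lists together were found in bins 24 (115 to 120 Mb, 35.0), 25 (from 120 Mb to the end, 33.1) and 20 (95 to 100 Mb, 29.8). These held 621 anchors, 25.8% of those of the chromosome in 9.90% of its length, and 44.5%, 44.3%, 44.9% and 49.3% of its loops. Their observed over expected ratio was 1.14, 1.17, 1.22 and 1.47, while the other bins together had 0.935 (0.915 to 0.956), 0.954 (0.931 to 0.977), 0.966 (0.939 to 0.993) and 0.984 (0.957 to 1.01). The 3 bins were picked for their loops per anchor, while the other autosomes kept all their bins, so the remainder was bound to come out lower and these values are a description.

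Given span, the 3 highest of the 22 bins with at least 30 anchors were bin 23 (110 to 115 Mb, 1.33), bin 24 (1.26) and bin 20 (1.23), and these were the only ones at 1.2 or above over the lists together. That is 13.6% of the bins, against 14.8% of 359 such bins over all autosomes. Per list, 2, 2, 4 and 4 of the 22 bins reached 1.2, where 18.1%, 15.3%, 17% and 13.4% of all autosomal bins did. All 4 intervals lay above 1 in 4 bins (20, 23, 24 and 25) and below 1 in 3. The lowest ratios belonged to bin 9 (40 to 45 Mb, 0.632), bin 12 (55 to 60 Mb, 0.660) and bin 18 (85 to 90 Mb, 0.724). Bin 18 was densely anchored, with 148 anchors and 61.8 pairs per anchor, and still had only 590, 450, 354 and 313 loops where 785, 640, 473 and 461 were expected.

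**Figure D3:**
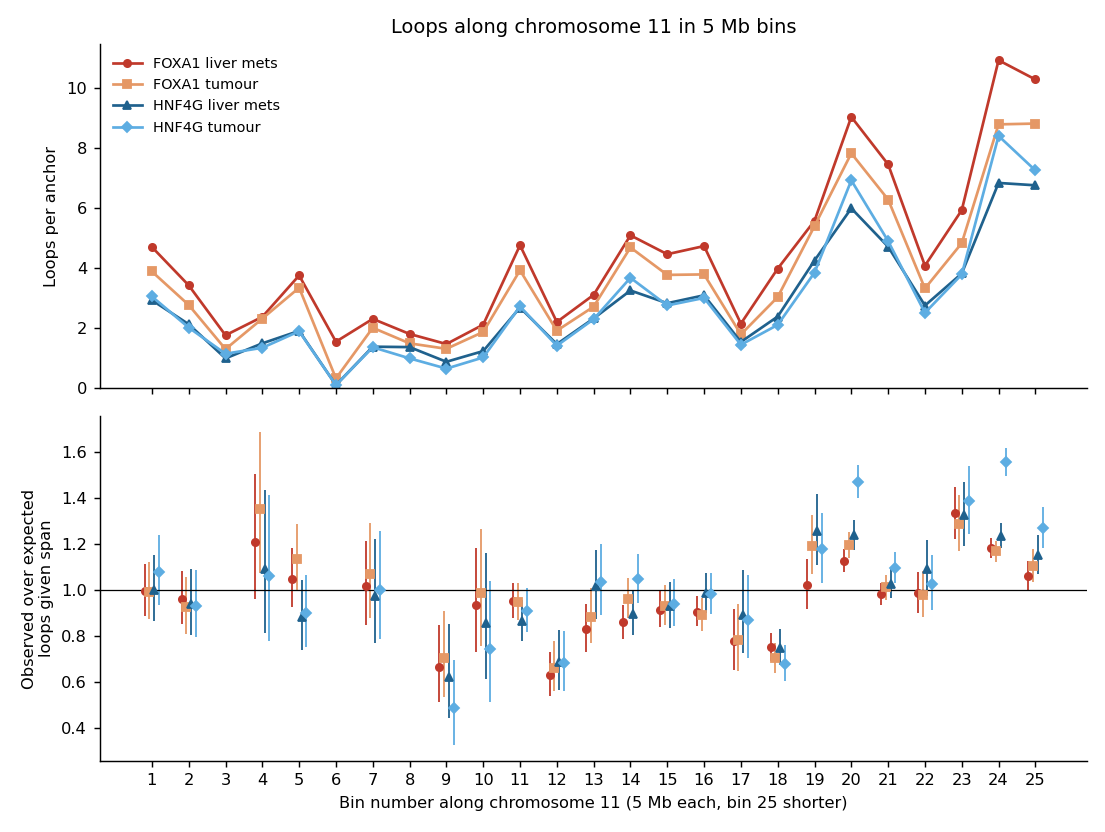
Loops per anchor (top) and observed over expected loops given span with 95% counting intervals (bottom, bins with at least 30 anchors) in the 25 bins of 5 Mb along chromosome 11, numbered from the centromere, with 1 colour per list. Loops per anchor are highest in bins 20, 24 and 25, where HNF4G tumour has ratios of 1.47, 1.56 and 1.27. Bin 23 has 1.29 to 1.39 in all lists at far fewer loops per anchor.

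Bin 23 was less densely anchored than bins 24 and 20. It held 92 anchors, of which 25 were promoter anchors, and its ratio over the lists stayed at 1.33 when local density was taken into account, where bins 24 and 20 came to 1.14 each. Its values per list were 1.33, 1.29, 1.33 and 1.39. Bin 4, with 34 anchors, did not fall either, at 1.19 given span and 1.31 with local density. The rank of bin 23 depended on the bin borders. With bins shifted by 2.5 Mb, the bins that shared its range had 1.12 and 1.16 over the lists. In windows of 1 Mb, a size chosen after seeing the data, the highest ratio among 77 windows with at least 10 anchors was 1.88 at 112 to 113 Mb, around Sox9, with 11 anchors. The next were 1.74 at 99 to 100 Mb, which holds Krt10, Krt20 and Krt23 of the type I keratins, and 1.51 at 117 to 118 Mb, around Tk1 and Socs3.

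Sox9 encodes a transcription factor that marks pancreatic progenitor and duct cells. Its promoter anchor (chr11:112780093-112788266) had 22, 18, 13 and 16 loops where 6.74, 5.50, 3.97 and 3.92 were expected given span. These led to 34 distinct partners, 29 of them downstream of the gene, and 31 lay over 2 kb from any annotated start. The farthest was 949 kb away and the median distance was 365 kb. Only 5 partners were listed for Sox9 in all 4 lists, and all of them lay between 216 and 318 kb downstream. The partner at chr11:113058773-113064300 had the top value of a Sox9 loop in 3 of the lists, with 20, 11.1 and 10.7 for FOXA1 liver mets, HNF4G liver mets and HNF4G tumour, and 5.22 for FOXA1 tumour. This anchor and its neighbours at chr11:112998155-113002825 and chr11:113178927-113183487 were also the 3 most connected anchors of bin 23, with 99, 90 and 82 loops over the lists, and none had an annotated start within 2 kb.

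A few anchors carried many loops. Over the 4 lists a chromosome 11 anchor had a median of 29 loops, against 19 elsewhere. At 80 or more loops stood 194 of the 2410 anchors (8.05%), where 2.85% of the 30247 autosomal anchors did. They made up 24% of the loop ends of the chromosome. Of the 194, 157 lay in bins 20, 24 and 25, which held 25.8% of the anchors of the chromosome. Above expectation in all 4 lists were 185 of the 194. Both these anchors and these bins were picked by loop counts, which favours such numbers, so they are a description. The last anchor inside this limit had 80 loops and the first outside 79. Their median width was 4694 bp, against 2298 bp for the other anchors of the chromosome, and 67.5% were promoter anchors. Without them, a choice that uses the loop counts themselves, the observed over expected ratio of the chromosome was 0.893, 0.923, 0.948 and 1.00, with the same limit applied to the other autosomes.

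The 10 most connected anchors included promoters of genes with varied roles. The Lasp1 anchor (chr11:97798516-97815020), at a gene for an actin-binding LIM protein, had 70, 53, 41 and 51 loops in FOXA1 liver mets, FOXA1 tumour, HNF4G liver mets and HNF4G tumour. The C1qtnf1 anchor (chr11:118422530-118439960), at a gene for a secreted adipokine-like protein, had 67, 55, 37 and 52. The Tk1/Afmid anchor (chr11:117821995-117831811), at the divergent start of cytosolic thymidine kinase and arylformamidase, had 80, 49, 34 and 46. By count all 3 were highest in FOXA1 liver mets, the list with the most loops, and lowest in HNF4G liver mets. The observed over expected ratio given span was 3.71, 3.41, 3.56 and 4.57 for Lasp1 and 4.13, 4.18, 3.80 and 5.48 for C1qtnf1. For Tk1/Afmid it was 4.03, 2.98, 2.74 and 3.86. By this ratio HNF4G tumour was highest for Lasp1 and C1qtnf1.

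Socs3, a feedback inhibitor of JAK-STAT signalling, had 71, 41, 38 and 49 loops at chr11:117962160-117970859. Rara, the retinoic acid receptor alpha gene, had 57, 53, 34 and 42 at chr11:98940653-98955489. Bahcc1, a gene for a large chromatin reader protein, had 54, 50, 40 and 39 at chr11:120229313-120237970. Together with the anchors of Gm14206/Gm12349, Gm11766 and Baiap2 and 1 anchor without a start within 2 kb (chr11:117929575-117942730), each of the 10 had between 2.72 and 4.49 times its expected loops over the lists. The 10 were 7854 to 17431 bp wide. Width moved with these counts, and its part in them was not tested anchor by anchor.

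Most partners of these anchors were not constant. Of 103 distinct loops of the Lasp1 anchor 16 stood in all 4 lists, and 43 in 1 list only. For Tk1/Afmid the numbers were 14 and 56 of 111, and for Socs3 16 and 63 of 109. Over the whole chromosome 6.15% (5.88 to 6.44) of 28407 distinct loops were in all 4 lists, against 5.18% (5.09 to 5.27) on the other autosomes, and 64.9% were in 1 list.

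Trp53, the tumour suppressor that the KPC model mutates, shared its anchor (chr11:69576965-69582060) with the overlapping gene Wrap53. It had 14, 19, 6 and 8 loops where 13.8, 11.1, 7.84 and 7.82 were expected, and none of its 34 distinct loops was in all 4 lists. Its surplus was largest for FOXA1 in tumour. FOXA1 liver mets and HNF4G tumour lay close to expectation, and HNF4G liver mets lay below it at few loops.

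**Figure D4:**
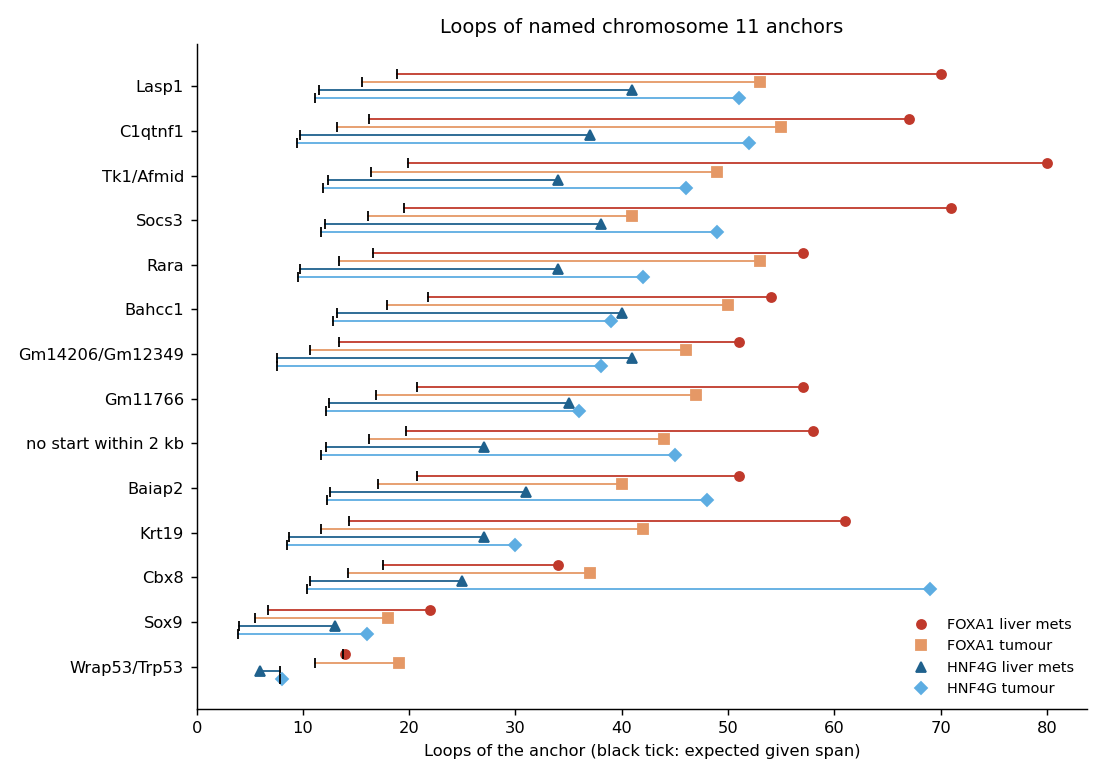
Loops per list of the 10 most connected chromosome 11 anchors and of the Krt19, Cbx8, Sox9 and Trp53 anchors, named by the gene starts within 2 kb; black ticks show the loops expected given span. The anchors down to Sox9 lie above expectation in all lists, Cbx8 has 69 HNF4G tumour loops against 25 to 37 in the other lists, and the Wrap53/Trp53 anchor lies farthest from its tick for FOXA1 tumour (19 against 11.1).

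The top value of 20 was reached in all 4 lists by 5 loops. One joined the keratin gene Krt19, a marker of pancreatic duct and carcinoma cells, to the Gm14206/Gm12349 anchor over 140 kb, beyond the neighbouring anchors. Another joined the integrin gene Itga3 to an anchor without a gene start 25.4 kb away, and the next joined Cdk5rap3 to Prr15l over 15.4 kb. The fourth lay between anchors without a start at 120.5 Mb and the fifth between Sfi1 and Gm11400, 5.05 kb apart. The last was near the first sequenced base of the assembly (position 3100001), where the first anchor began 26.3 kb inside.

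Genes of 8 functional lists differed in how connected their promoter anchors were. The comparison value is the median of 34 loops, over the 4 lists, for all 1209 promoter anchors of chromosome 11, and 22 for the 13693 promoter anchors of all autosomes. These lists were put together with results of these data known, so their medians are a description. Epithelial keratins and adhesion genes had the highest median, 72 loops over the 27 anchors of 17 of its 26 genes on the chromosome, and the other 9 had no promoter anchor and do not enter it. Krt19 had 61, 42, 27 and 30 loops, the septin gene Sept9 39, 35, 30 and 44, and Krt10, a keratin of differentiated epidermis, 11, 11, 3 and 6. Krt14, Krt16 and Krt17, keratins of basal and stressed epithelium, had no anchor within 2 kb.

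Transcription factors had a median of 51.5 loops over 36 anchors. Rara led with the values above, followed by the circadian repressor Nr1d1 with 49, 38, 28 and 41, and Rel, an NF-kappaB subunit, was lowest with 1, 3, 1 and 2.

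Receptor and kinase genes had a median of 46.5 over 38 anchors, with Socs3 first, Erbb2 second and Sparc last (2, 4, 1 and 1). Erbb2, the HER2 receptor tyrosine kinase, had 50, 48, 28 and 42 loops at chr11:98411223-98420459, of which 35, 32, 19 and 30 reached another promoter anchor. A second Erbb2 anchor (chr11:98426970-98429451) had 13, 14, 14 and 11, where 19.3, 16.0, 12.2 and 11.7 were expected, so it lay below expectation in all lists but HNF4G liver mets. Neighbouring Grb7, an adaptor of this receptor, had 38, 33, 26 and 23.

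Polycomb and chromatin genes and genes of lipid and glucose metabolism had medians of 48. Given span, the metabolism genes had 1.04, 1.08, 1.19 and 1.51 times their expected loops. For FOXA1 this was below the 1.07 and 1.10 of all promoter anchors of the chromosome, and for HNF4G above their 1.14 and 1.32. In the first group Cbx8 (34, 37, 25 and 69), a subunit of Polycomb repressive complex 1, came first and Kansl1 (6, 4, 2 and 4) last. In the second the mitochondrial carrier Slc25a10 (33, 27, 22 and 22) and fatty acid synthase Fasn (30, 25, 21 and 25) were the most connected, and acetyl-CoA carboxylase Acaca (4, 0, 3 and 3) the least. Cell division genes, at 32.5, did not exceed the chromosome's median although Tk1 belonged to them. Below Tk1 came the apoptosis inhibitor Birc5 with 24, 18, 14 and 15, and the DNA repair gene Rad51c had 0, 3, 0 and 1, a total it shared with the cyclin gene Ccng1 as the lowest of the list.

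Chemokine and Hoxb genes are given by count only. The share of all chromosome 11 genes with a promoter anchor is not given, so whether these counts are low was not tested. Of 12 chemokine genes 3 had a promoter anchor, led by Cxcl16 (19, 16, 11 and 7) and Ccl5 (6, 6, 4 and 3), with Ccl9 lowest at 4, 4, 1 and 3. Of 10 Hoxb genes 1, Hoxb7, had an anchor, and its loops numbered 6, 7, 2 and 11.

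Between liver mets and tumour, the share of a list that lay on chromosome 11 had an interval taking in 1 for FOXA1 and was lower in liver mets for HNF4G. The FOXA1 ratio of shares, liver mets over tumour, was 0.989 (0.965 to 1.01), and the HNF4G ratio was 0.913 (0.887 to 0.939). This contrast between the factors was lost for loops with a value of at least 2, where the ratios were 0.892 (0.821 to 0.970) and 0.892 (0.809 to 0.985). For HNF4G the ratio was near 1 for close pairs, 0.960 (0.844 to 1.09) at 5 to 10 kb and 0.982 (0.912 to 1.06) at 20 to 50 kb, and was 0.876 (0.804 to 0.953) at 500 to 1000 kb and 0.773 (0.696 to 0.858) at 1000 to 2000 kb. There HNF4G had 616 chromosome 11 loops in liver mets and 871 in tumour, while FOXA1 had 1492 and 971 with a ratio of shares of 1.07 (0.988 to 1.16). Most loops at this range had low values. A value of at least 2 was reached by 1.46% and 3.33% of these HNF4G loops in liver mets and tumour, and by 3.69% and 2.37% of the FOXA1 loops. The ratio at this range is not given for loops at that value.

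The HNF4G difference lay mainly in bins 20, 24 and 25. These bins were picked for loops per anchor over lists that include HNF4G tumour. That choice favours a ratio below 1 there, so the values are a description. In bins 20, 24 and 25 together the ratio of shares was 0.831 (0.797 to 0.867), and in the rest of the chromosome 0.992 (0.953 to 1.03). FOXA1 had 0.994 and 0.986 in the same parts. For HNF4G, bin 25 alone had 0.911 (0.823 to 1.01). Bin 21, with 212 anchors, had 0.940 (0.861 to 1.03). Bin 24, at 0.795, was the only one of 22 bins at or below 1/1.2 for HNF4G, where 6.69% of autosomal bins were. Bin 9, at 1.31, was the only one at or above 1.2, where 17.8% of autosomal bins were. No chromosome 11 bin passed either limit for FOXA1, against 5.57% above and 2.79% below over all autosomes.

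Single anchors showed where the HNF4G loops of the tumour line gathered. Of 689 chromosome 11 anchors with at least 20 HNF4G loops in the 2 lists, 398 had more in tumour and 234 more in liver mets. The exact interval of the ratio of shares left out 1 with tumour higher at 26 anchors (3.77%), where 1.95% of 3991 such autosomal anchors did so, and with liver mets higher at 3 (0.435%), where 0.376% did. Since intervals at this level leave out 1 at some anchors by counting error alone, the shares are to be read against each other. Of the 26, 20 lay in bins 20, 24 and 25, and 18 were promoter anchors. The limit of 20 HNF4G loops picks anchors with many loops. The same shares among all 689 anchors were not computed, so these counts are a description. The 26 had a median GC content of 58.9%, against 50.2% for all anchors of the chromosome. Its promoter anchors had 52.6%, and its anchors with 80 or more loops 53.8%.

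The anchors around Cbx8 stood out most. The Cbx8 anchor (chr11:119037193-119043809) had 69 HNF4G loops in tumour and 25 in liver mets, a ratio of shares of 2.82 (1.76 to 4.66). Its FOXA1 loops numbered 37 and 34, as counts from a smaller tumour list and a larger liver mets list. Of its 96 distinct loops 33 were found with HNF4G in tumour only. The anchor of Cbx2 (20 and 8), which encodes another subunit of the same complex, and 3 neighbouring anchors without a start within 2 kb, at chr11:119033722-119036408 (29 and 12), chr11:119050944-119054445 (40 and 18) and chr11:119055858-119058141 (49 and 16), also had more HNF4G loops in tumour.

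The loop from Cbx8 to the last of these anchors, 16.5 kb away, reached 20 in HNF4G tumour, where the other lists had 0.120 to 0.320. Among the 26 anchors 24 of 72 possible pairs were listed for HNF4G in tumour, 3.12 times the expected number, and 15, 15 and 14 in the other lists. As the 26 were chosen by HNF4G counts, the HNF4G part of this is a description.

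Other genes of the 26 had varied roles, and 5 are given here. Nptx1, a neuronal pentraxin, had 40 HNF4G loops in tumour and 17 in liver mets, the neuronal transcription factor gene Neurod2 28 and 10, Srcin1 29 and 12, and Stac2 34 and 13. Notum, a secreted inhibitor of Wnt signalling, had 38 and 18. FOXA1 loops at these 5 anchors were 18 and 16, 15 and 11, 18 and 19, 17 and 15, and 26 and 26 in tumour and liver mets. These are counts, and the FOXA1 liver mets list was larger than the tumour list (125623 against 104136 loops). Equal FOXA1 counts are therefore a larger share of the tumour list. Ratios of shares are not given for FOXA1 at these anchors. The opposite order was found at an Ankrd40 anchor (chr11:94327153-94329047), with 6 HNF4G loops in tumour and 19 in liver mets.

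**Figure D5:**
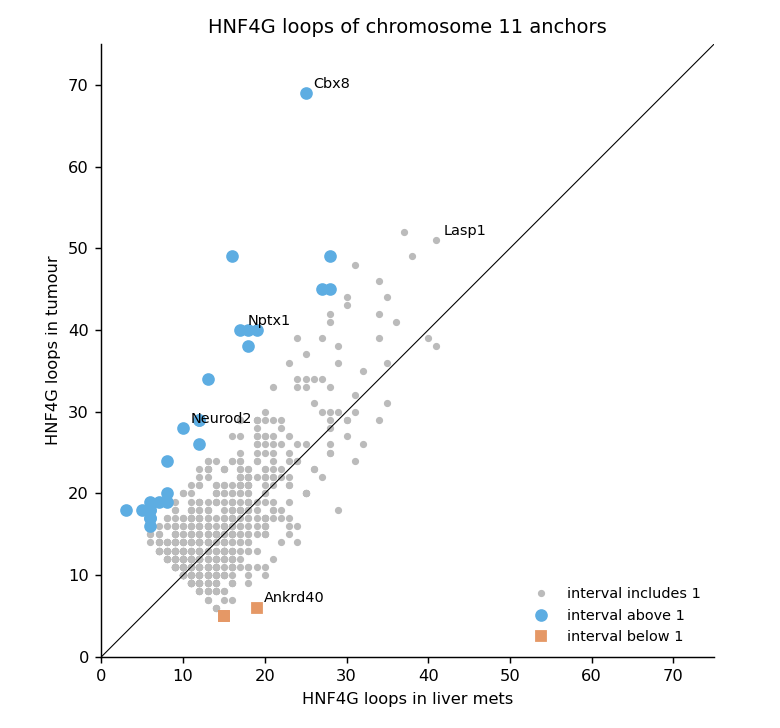
HNF4G loops in tumour against HNF4G loops in liver mets for the 689 chromosome 11 anchors with at least 20 of them in sum, with a line of equal counts; colours show whether the 95% exact interval of the ratio of shares lay above, around or below 1 (2 of the 3 lower points coincide). Cbx8 lies farthest above the line with 69 against 25 loops, and Ankrd40 below it with 6 against 19.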

How the data were processed

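Loop lists came from Hi-ChIP read pairs that the authors mapped to mm10 with HiC-Pro (version 3.1.0 in the submitters' processing notes), assigned to DpnII fragments and passed to hichipper. The paired-read minimum, the anchor source and the way replicates were joined are not given in the sources used here. The value per loop, deposited without a name, was taken from its distribution as −log10 of an adjusted p, and the deposited display score was not used further. Columns for 1 list per group were mapped by the sample titles.

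Anchors of the 4 lists were pooled, and every pair 5 kb to 2 Mb apart on 1 chromosome was counted as listed or not. Expected loops used 24 span classes on the other autosomes. Ratios have exact and shares Wilson 95% intervals, which treat loops as independent although they share anchors. Gene starts were from GENCODE M21 on GRCm38. In simulated lists with pairs drawn independently at these span-class rates, the calculation returned the excess put in. This checks the arithmetic only, since loops that share anchors were not simulated. Python 3 with pandas and scipy was used.

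The members and gene lists were chosen with earlier results of these data known. Named were the 10 most connected anchors, the 3 leading anchors of the 3 top bins by each measure, the 2 most and the least connected gene per list, loops with the highest summed value, and Trp53. Other named anchors (Cbx8 and its neighbours, the HNF4G anchors that differed between contexts, Krt19 and a second Erbb2 anchor) were chosen after their values were seen. Some results that the rule names are not reported here.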

Additional observations from a re-analysis of the deposited data

How the results depend on the processing

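No paired analysis was possible because each group had 1 loop list covering both replicates, and for the same reason no replicate could be left out. Lists are given in the order FOXA1 liver mets, FOXA1 tumour, HNF4G liver mets and HNF4G tumour. The ratio of loops per anchor stayed above 1 under every setting. It was 1.44, 1.64, 1.84 and 2.10 for loops with a value of at least 2, and 1.72, 2.10 and 2.55 in the last 3 lists at a value of at least 4. It was 1.43, 1.44, 1.43 and 1.57 over anchors used in that list, 1.27, 1.30, 1.32 and 1.40 without the bin with the most loops per anchor, 1.16, 1.19, 1.21 and 1.29 without anchors of 80 or more loops, and 1.49, 1.52, 1.55 and 1.71 with chromosome 6 out of the reference. The observed over expected ratio given span was less firm. In the last 3 lists it was 1.16, 1.31 and 1.49 at a value of at least 2, and 1.23, 1.49 and 1.80 at a value of at least 4. It was 0.999916, 1.01, 1.01 and 1.10 over anchors used in that list, 0.964, 0.988, 1.01 and 1.11 with anchor width, 0.996, 1.01, 1.01 and 1.08 with local density, 0.893, 0.923, 0.948 and 1.00 without anchors of 80 or more loops and, an alternative chosen after seeing the data, 0.935, 0.949, 0.962 and 0.981 without bins 20, 24 and 25. With promoter class it was 1.15 for HNF4G tumour. Wider span ranges, spans of at least 20 kb, leaving out the bin with the top ratio and leaving out chromosome 6 moved it by less than its interval. Bins at 1.2 or above numbered 6, and bins at or below 1/1.2 numbered 12, for loops with a value of at least 2. The liver mets over tumour ratio of shares was 0.892 (0.821 to 0.970) and 0.862 (0.730 to 1.02) for FOXA1 at values of at least 2 and 4, and 0.892 (0.809 to 0.985) and 0.854 (0.709 to 1.03) for HNF4G. The Hoxb7 anchor had 0.788 of the median loops of promoter anchors with starts taken within 5 kb, and 2.00 times that median at a value of at least 2. The cause of these shifts was not tested beyond the construction of each setting. Read pairs per loop were not given, so depth could not be matched between lists.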
